A study of Mus musculus with 9 samples.

Results

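Conventional dendritic cells were examined in the marrow of femurs from female mice of 3 strains, profiled by single-cell RNA sequencing. The cells were chosen by their own counts of UMIs, the unique molecular identifiers that mark counted RNA molecules. A barcode was a member when it held at least 5 Cd74 UMIs, at least 2 UMIs summed over Flt3, Cd209a, Xcr1, Clec9a, and Clec10a, no Siglech, no Cd79a or Cd79b, and fewer than 3 UMIs of C1qa, C1qb, and C1qc. The filters kept 39051 barcodes with 1000 UMIs or more, 500 genes or more, and no more than 10% mitochondrial UMIs, and 107 of them were members. NZB (New Zealand Black) and NZW (New Zealand White) are the parental strains, and NZBWF1 is their F1 hybrid, a spontaneous model of lupus that comes from NZW females mated to NZB males. Each strain was represented by 3 mice aged 9 to 10 weeks, with 1 library per mouse and red blood cells lysed before loading. Kept barcodes per mouse ranged from 2455 to 5684, and the median depth per mouse ranged from 2182.5 to 2536.5 UMIs per barcode.

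Conventional dendritic cells are antigen-presenting cells that take up protein, cut it in endosomes, and display the peptides to T cells on MHC class II. They arise in bone marrow from precursors that depend on the receptor Flt3. The cDC1 type, marked by Xcr1 and Clec9a, is known for presenting material from dead cells on MHC class I, and the cDC2 type, which in mouse often carries Cd209a and Clec10a, is known for priming helper T cells. Plasmacytoid dendritic cells, marked by Siglech and Bst2, are a separate type known for secreting type I interferon.

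The members were few in every mouse. NZB mice held 2, 2, and 5 members, NZW mice 7, 24, and 33, and NZBWF1 mice 6, 12, and 16. A member held between 1120 and 12043 UMIs, with a median of 2031, and 1039 genes in the median. Summed over the members, a mouse contributed between 3828 and 88988 UMIs, so that 1 UMI stood for 261 CPM (UMIs scaled to a common total of 1e6 per sum) in the shallowest sum and 11.2 CPM in the deepest. Only 1 member had a barcode sequence that was also kept in another library, out of 170 such sequences in the whole series. Free RNA, estimated from barcodes under 100 UMIs, came to between 4 and 15 UMIs per barcode, and it would account for 0.432 of the 3945 Cd74 UMIs of the members.

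The rule cut through a continuous range of counts. Members held 5 to 115 Cd74 UMIs with a median of 34, and their marker sum ran from 2 to 15 with a median of 3. At the Cd74 limit, 5 members had exactly 5 UMIs, with a median of 3 UMIs of the class II genes H2-Aa, H2-Ab1, and H2-Eb1, and 8 barcodes with 4 Cd74 UMIs, otherwise eligible, had a median of 2.5. At the marker limit, 43 members had a sum of exactly 2 with a median of 22 class II UMIs, and 111 barcodes with a sum of 1 had a median of 12. A further criterion, the absence of Siglech, alone turned away 295 barcodes, 143 of them from NZB, 50 from NZW, and 102 from NZBWF1 mice. The Cd79 and C1q criteria alone turned away 29 and 2 barcodes.

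The label was checked against marker genes. Genes of antigen presentation that the rule did not use, such as H2-Aa and Ciita, were higher in the members as compared to Siglech and Bst2 cells (plasmacytoid cells, n = 1674) and classical monocytes (n = 5568). H2-Aa, which encodes a class II chain, was at 7651 CPM in the members (95% exact Poisson interval 7329 to 7984), 1456 in plasmacytoid cells, and 134 in monocytes. H2-Eb1 was at 6347, 819, and 101 CPM in the same order, and Ciita, the master regulator of class II transcription, at 371, 63.4, and 8.19 CPM. Batf3, a transcription factor required for cDC1, was at 133, 0.625, and 9.64 CPM. These are levels in cells gated on Cd74, which is regulated together with the class II genes, and they are given as a description. The intervals cover counting error only.

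The marker lists were counted without the genes of the rule, of which the shared list held 4 and the cDC1 and cDC2 lists 2 each. Of the other 9 shared markers of conventional dendritic cells, 8 had a UMI in the members and the same number stood above all other kept barcodes. Ccr7, the homing receptor of migratory dendritic cells, was the exception with no UMI. All 13 such cDC1 markers and 13 of 16 cDC2 markers were detected, and 12 and 11 of them stood above the other barcodes. The same tally was 10 of 15 for plasmacytoid markers outside the rule, 8 of 13 for classical monocyte markers, and 8 of 10 for nonclassical monocyte markers. For markers of dendritic cell precursors or progenitors outside the rule it was 1 of 11. With Flt3 that list summed to 587 CPM in the members and 1666 CPM in the other barcodes. The classical monocyte markers summed to 10142 CPM in the members and 9481 CPM in the other barcodes. The classical markers Itgax (CD11c) and Zbtb46 rested on 9 and 3 UMIs. Of 13 genes of mature migratory dendritic cells, 8 had a UMI and 6 stood above the other barcodes, whereas Ccr7, Fscn1, Socs2, Ccl22, and Cacnb3 were at 0. The list summed to 227 CPM in the members and 418 CPM in the other barcodes. Cd86, a costimulatory ligand, had 12 UMIs, Cd40 had 9, and Cd80 had 1. Among the endosomal nucleic acid sensors, Tlr3 had 15 UMIs, Tlr7 had 3, and Tlr9 had none.

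**Figure D1:**
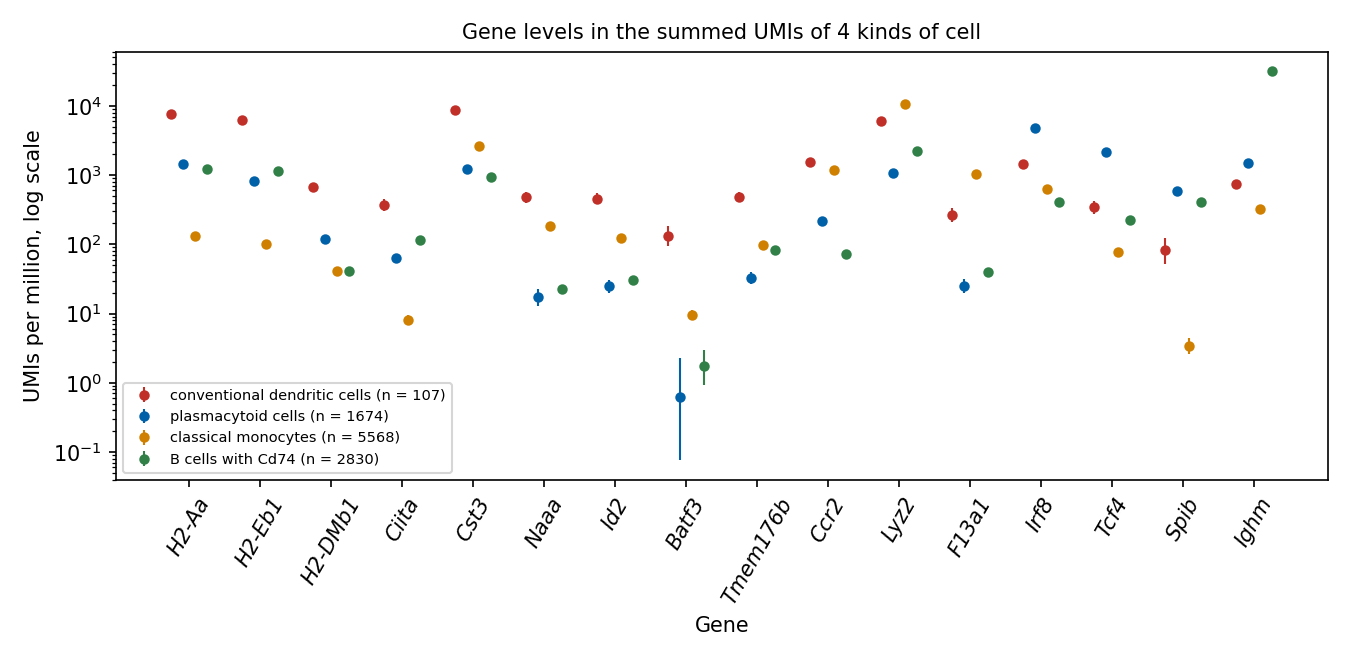
Levels of 16 genes that the rule did not use, in the summed UMIs of 4 kinds of cell; the y axis is CPM on a log scale, the points are pooled levels, and the bars are 95% exact Poisson intervals. H2-Aa, H2-Eb1, H2-DMb1, Ciita, Cst3, and Batf3 stood highest in the conventional dendritic cells, Irf8, Tcf4, and Spib in the plasmacytoid cells, and Lyz2 and F13a1 in the classical monocytes. F13a1 and Ccr2 were among the genes that defined the monocytes, so their levels there are descriptions.

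Markers of other cell types were not absent. The 13 genes of the neutrophil list summed to 16524 CPM in the members and 150654 CPM in all other kept barcodes, and their sum per mouse ran from 193 to 92377 CPM in NZB, 513 to 67868 in NZW, and 712 to 5653 in NZBWF1. At least 20 UMIs of S100a8 and S100a9 were held by 6 members, of which 2 were in NZB, 3 in NZW, and 1 in NZBWF1, and 1 of them held 966. Of 14 B cell markers outside the rule, 6 were at 0, including Ms4a1 and Pax5, whereas Ighm, the immunoglobulin M heavy chain, had 205 UMIs against 2.24 expected from free RNA. At least 2 UMIs of these markers were held by 68 members (63.6%), and at least 2 Ighm UMIs by 52. The 16 plasmacytoid markers summed to 2159 CPM in the members and 1388 CPM in the other barcodes. A limit of 2 UMIs of B cell, plasma cell, T cell, NK cell, erythroid, or basophil and mast cell markers, or 20 of S100a8 and S100a9, was passed by 77 members (72.0%) and left 30. The part of such UMIs in the results was not tested beyond the counts and shares given without these members.

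By the marker genes of the rule, 76 members (71.0%) held Cd209a or Clec10a without Xcr1 or Clec9a, 18 (16.8%) held Xcr1 or Clec9a without Cd209a or Clec10a, 9 (8.41%) held genes of both arms, and 4 (3.74%) were members through Flt3 alone. The exact binomial 95% interval of the Xcr1 or Clec9a arm was 10.3% to 25.3%. Members of that arm were deeper, with a median of 4116 UMIs as compared to 1881.5 in the Cd209a or Clec10a arm. The arm held 0 of 2, 1 of 2, and 1 of 5 members in NZB, 1 of 7, 3 of 24, and 7 of 33 in NZW, and 0 of 6, 0 of 12, and 5 of 16 in NZBWF1. With this overlap, no difference between strains was detectable (exact permutation test over the 9 mice, two-sided, p = 0.689).

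Within the members a group of 22 cells (20.6%) held at least 3 UMIs of 13 plasmacytoid genes, although the rule allowed no Siglech. The genes were Ccr9, Tcf4, Ly6d, Cox6a2, Klk1, Klk1b27, Runx2, Cd300c, Smim5, Pacsin1, Spib, Mctp2, and Cyb561a3. The group was made up of 1 NZB, 12 NZW, and 9 NZBWF1 cells, and 17 of the 22 were in the Cd209a or Clec10a arm. The whole set of members ranged from 0 to 38 such UMIs, and plasmacytoid cells had a median of 17. In the 22 cells Bst2 was at 2440 CPM as compared to 247 in the other members, and Ctsl, a lysosomal protease, at 1370 as compared to 35.0. Cd74 was at 5716 as compared to 15939 CPM, and H2-Aa at 2355 as compared to 8724. At least 10 plasmacytoid UMIs were held by 16 of the 22, and the other 6 lay nearer the limit with 3 to 7, among them 1 with 73 Cd74 UMIs. The pooled levels of the 22 thus went against the label of a conventional dendritic cell, but whether single cells were plasmacytoid, conventional, or of a state between them cannot be told from these counts.

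A second group of 37 members held at least 10 UMIs of Lyz2, the lysozyme of monocytes and macrophages, and 32 of them were in the Cd209a or Clec10a arm. Only 1 cell was in both groups. The Cd209a or Clec10a arm therefore fell into 32 cells with 10 or more Lyz2 UMIs, 27 with fewer and without plasmacytoid genes, and 17 with plasmacytoid genes. F13a1, a monocyte transglutaminase, was at 706, 315, and 0 CPM in these sets. H2-Eb1 was at 5850, 11543, and 1383 CPM, and the rule gene Cd209a at 480, 1200, and 424 CPM. Thus the highest class II and Cd209a levels were in the middle set. These sets were cut on the counts of the same cells, and no test was made between them.

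**Figure D2:**
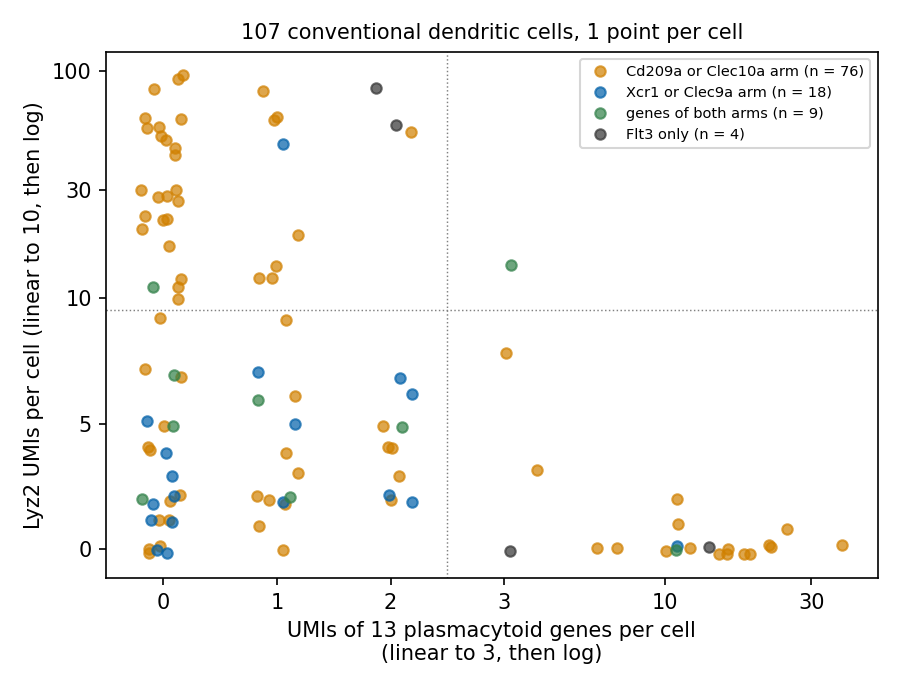
Lyz2 UMIs (y axis, linear to 10 and then log) against UMIs of 13 plasmacytoid genes (x axis, linear to 3 and then log) in each of the 107 members, with a small random shift to part equal values; the colours mark the 4 arms of the rule and the dotted lines the limits of 10 and 3 UMIs. The 22 cells right of the vertical line and the 37 above the horizontal line had 1 cell in common.

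Another feature was cell division. At least 10 UMIs of 24 genes of G2 and mitosis were held by 13 members, 4 of the 9 from NZB, 5 of the 64 from NZW, and 4 of the 34 from NZBWF1, and 8 of the 13 were in the Xcr1 or Clec9a arm. At least 3 UMIs of 6 interferon-stimulated genes were found in 5 members, of which 1 was from NZB, 4 were from NZW, and 0 were from NZBWF1.

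The arms were then compared within mice, over the 3 mice with at least 3 members in both (19 and 3 cells in NZW mouse 2, 21 and 7 in NZW mouse 3, and 9 and 5 in NZBWF1 mouse 3, Cd209a or Clec10a arm first). Of 352 genes tested by edgeR's quasi-likelihood fit with the mouse as a block and the genes of the rule left out, 64 (18.2%) differed at an adjusted p under 0.05. Of these 29 (8.24%) were higher in the Xcr1 or Clec9a arm and 35 (9.94%) were lower. Leaving out 1 mouse gave 40 genes (without NZW mouse 3) to 78. The spread was estimated from 3 mice and shared among the genes tested, so the very small p-values below do not rest on each gene's own spread. More of the dividing members were in the Xcr1 or Clec9a arm. The arm fit was added after the data were seen.

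Of the 13 cDC1 markers outside the rule, only Id2, Naaa, Wdfy4, Irf8, and Ppt1 were deep enough to be tested. Each was called and higher in the Xcr1 or Clec9a arm. Id2, a repressor of helix-loop-helix factors required for cDC1, was at 1428, 1103, and 1758 CPM in the 3 mice as compared to 30.3, 70.1, and 98.1 CPM in the Cd209a or Clec10a arm (log2 fold change 4.32, SE 0.46, adjusted p = 2.72e-18). Naaa, a lysosomal amidase, was at 2652, 662, and 1632 CPM as compared to 242, 140, and 245 (log2 fold change 2.85, SE 0.37, adjusted p = 1.01e-12). Neither gene overlapped between the arms. Wdfy4, which is required for cross-presentation by cDC1, was also called, at 612, 579, and 502 CPM as compared to 30.3, 140, and 0 CPM. Irf8, the lineage factor, was higher by 2.0 on the log2 scale, and Ppt1, a lysosomal thioesterase, by 3.58. Without the members with plasmacytoid genes or many neutrophil UMIs, 17 of the 22 former being in the Cd209a or Clec10a arm, 74 of 323 genes were called, and the difference in Irf8, which plasmacytoid cells also express, was 4.32 (adjusted p = 5.54e-13). Tlr3, too low to be tested, had 15 UMIs in the Xcr1 or Clec9a arm and none in the other.

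Among the genes lower in the Xcr1 or Clec9a arm were Lyz2, Tmem176b, and Ccl9. Lyz2 was at 1122, 634, and 586 CPM in the 3 mice as compared to 5325, 7623, and 11336 CPM in the Cd209a or Clec10a arm (log2 fold change -3.53, SE 0.25, adjusted p = 1.47e-35). Tmem176b, a cation channel of cDC2 and monocytes, and Ccl9, a chemokine, had no UMI in the Xcr1 or Clec9a arm of any of the 3 mice, as compared to 696 to 912 CPM and 561 to 1129 CPM in the other arm. The chemokine receptor Ccr2, which guides exit from marrow, was lower by a log2 fold change of -1.64. The interferon-induced Ifitm3, of a family with near-identical copies and so of uncertain read assignment, differed by -4.14. Cybb, an oxidase subunit also called, was at 0, 82.7, and 0 CPM in the Xcr1 or Clec9a arm as compared to 847, 1660, and 1227 CPM in the other. The transcription factor Zeb2, also called, was at 0, 110, and 83.7 CPM as compared to 696, 912, and 834 CPM. No fold is given for these low levels. Tmem176b, Ccl9, Cybb, and Zeb2 entered the test through the Cd209a or Clec10a arm, which alone was deep enough. S100a8 and S100a9 were also called, but their levels overlapped between the arms.

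By list, 4 of 8 tested genes of MHC class I and cross-presentation were called higher in the Xcr1 or Clec9a arm, as compared to 29 of all 352 genes (8.24%). The median log2 fold change was 0.76 over the 8 and 0.0027 over all 352 genes. The 4 called genes were Wdfy4, the proteasome activator Psme1 (1.32), and the immunoproteasome subunits Psmb9 (1.22) and Psmb8 (0.86). Wdfy4, Psme1, and Psmb9 entered the test through their levels in the Xcr1 or Clec9a arm, so the count is no test of the list. Wdfy4 is also among the cDC1 markers above. Of 7 tested genes of class II presentation, only the protease Ctss was called, and it was lower (-1.57). H2-Aa differed by -0.04 (SE 0.21), H2-Ab1 by -0.07 (SE 0.20), and H2-Eb1 by -0.16 (SE 0.21), none of which passed. Both tested cytokine genes, Ccl9 and Ccl6, were called lower, as were 3 of 6 interferon-stimulated genes (Ifitm3, Ifi27l2a, and Samhd1). The share over all 352 genes was 35 lower (9.94%). Ccl9, Ccl6, Ifitm3, Ifi27l2a, and Samhd1 entered the test through the Cd209a or Clec10a arm, so these counts are descriptions as well. Ifi27l2a overlapped between the arms, and in NZW mouse 2 it was higher in the Xcr1 or Clec9a arm (612 as compared to 484 CPM). Hmgb2, the 1 tested gene of G2 and mitosis, was higher by 2.36. Without the dividing members 37 of the 64 genes could be tested, 36 kept their sign, and 20 were called, among them Naaa (3.08), Cst3 (1.80), Cybb, and Tmem176b. None of the 4 class I calls remained, since Wdfy4, Psme1, and Psmb9 could not be tested and Psmb8 differed by 0.31 (adjusted p = 0.826). Ifitm3 stayed called (-3.78), Samhd1 did not (-0.61, adjusted p = 0.632), and Ifi27l2a, Ccl9, and Ccl6 could not be tested.

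**Figure D3:**
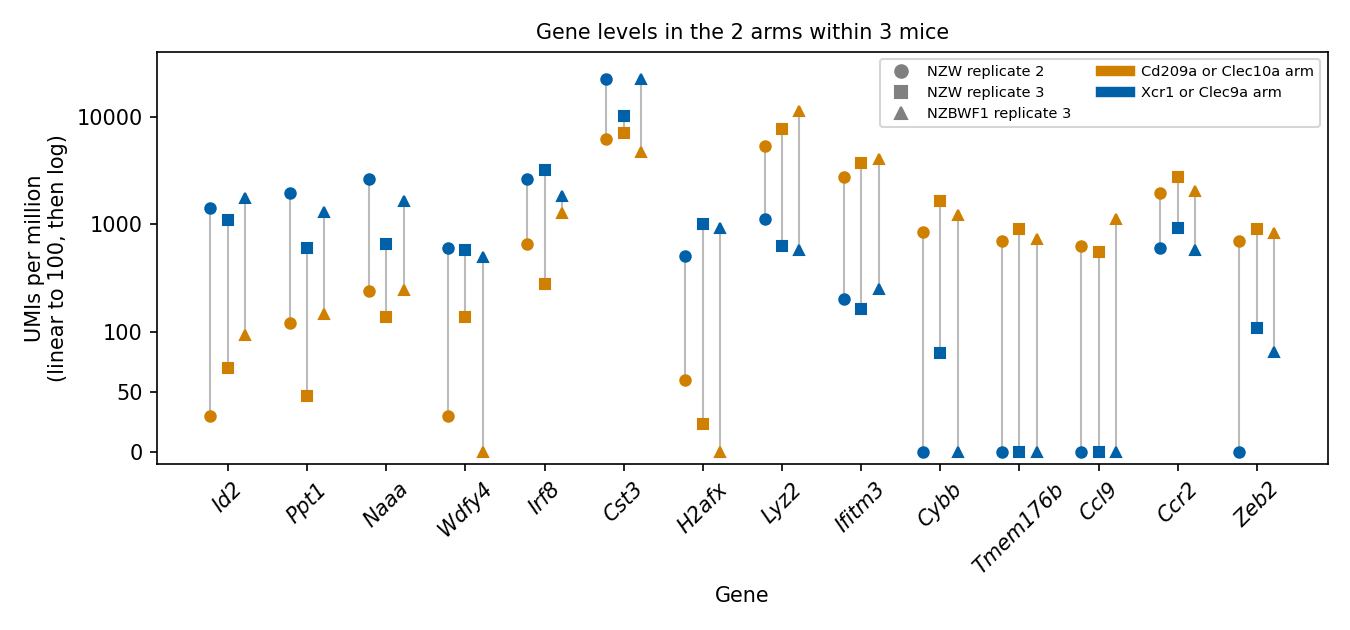
Levels of 14 genes in the Cd209a or Clec10a arm (orange) and the Xcr1 or Clec9a arm (blue) of 3 mice; the y axis is CPM, linear to 100 and then log, each marker shape is 1 mouse, and the lines join the arms of a mouse. Id2, Ppt1, Naaa, Wdfy4, Irf8, Cst3, and H2afx were higher in the Xcr1 or Clec9a arm in each mouse, and the other 7 genes were lower.

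Next, the abundance of the members was compared between the strains. In NZB mice 1 to 3 they made up 0.0815, 0.0392, and 0.152% of the kept barcodes. NZW mice 1 to 3 held 0.162, 0.467, and 0.667%, and NZBWF1 mice 1 to 3 held 0.234, 0.216, and 0.281%. Every NZW and NZBWF1 mouse lay above every NZB mouse. The means were 0.0910 ± 0.0571% in NZB, 0.432 ± 0.254% in NZW, and 0.244 ± 0.0338% in NZBWF1 (SD, n = 3 mice each), which is 4.75-fold and 2.68-fold above NZB for NZW and NZBWF1. The folds were 2.48 and 1.44 when 1 Siglech UMI was allowed, 2.72 and 1.99 with a marker sum of at least 1, 4.42 and 1.65 after thinning to 1000 UMIs, 8.14 and 4.11 with a marker sum of at least 3, 7.06 and 3.83 with Flt3 not counted, and 7.16 and 4.04 without NZB mouse 3. The difference among the strains did not pass (exact permutation test, two-sided, p = 0.0893, adjusted over 8 quantities 0.143). In pairs the exact test gave p = 0.1 for NZW and for NZBWF1 as compared to NZB, the smallest that 3 against 3 mice allow, and 0.4 for NZBWF1 as compared to NZW.

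The call for the share turned on NZW mouse 1, with 7 members, and on the scale and criteria. The exact binomial 95% interval of that mouse, 0.0653 to 0.334%, overlapped those of the NZB mice, and 4 of its 7 members held plasmacytoid genes. Without it the exact p was 0.00357, the smallest possible in that design. With all 9 mice the exact p was 0.0286 on the log2 share, 0.0286 with the Cd79 genes not used, and 0.0464 with Flt3 not counted. Counting error was wide in NZB as well, with an interval of 0.00987 to 0.294% in mouse 1. Without the 27 members that held plasmacytoid genes or many neutrophil UMIs, the means were 0.0641% in NZB, 0.327% in NZW, and 0.176% in NZBWF1 (exact permutation p = 0.164, 80 members). With only the 30 members under the other-lineage limits the exact permutation p was 0.279.

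Plasmacytoid cells went the other way. They made up 10.6, 9.26, and 8.22% of kept barcodes in NZB, 0.998, 1.15, and 1.17% in NZW, and 2.96, 3.55, and 4.17% in NZBWF1, with no overlap between strains (exact permutation p = 0.00357, adjusted 0.00952). Hence the members per 100 plasmacytoid cells were 0.766, 0.423, and 1.85 in NZB, 16.3, 40.7, and 56.9 in NZW, and 7.89, 6.09, and 6.75 in NZBWF1. All 3 strains were separate, with means of 1.01 ± 0.746, 37.95 ± 20.4, and 6.91 ± 0.912 (exact permutation p = 0.00357 on the log2 ratio, adjusted 0.00952). The denominator alone was 8.48-fold higher in NZB than in NZW, so the ratio holds both changes. Without the 27 members named above the exact permutation p of the ratio was 0.0107. Per 100 classical monocytes, whose share did not differ detectably (p = 0.7, exact permutation test), the members numbered 0.745 ± 0.531 in NZB, 2.75 ± 1.39 in NZW, and 2.02 ± 0.735 in NZBWF1 (exact permutation p = 0.125).

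**Figure D4:**
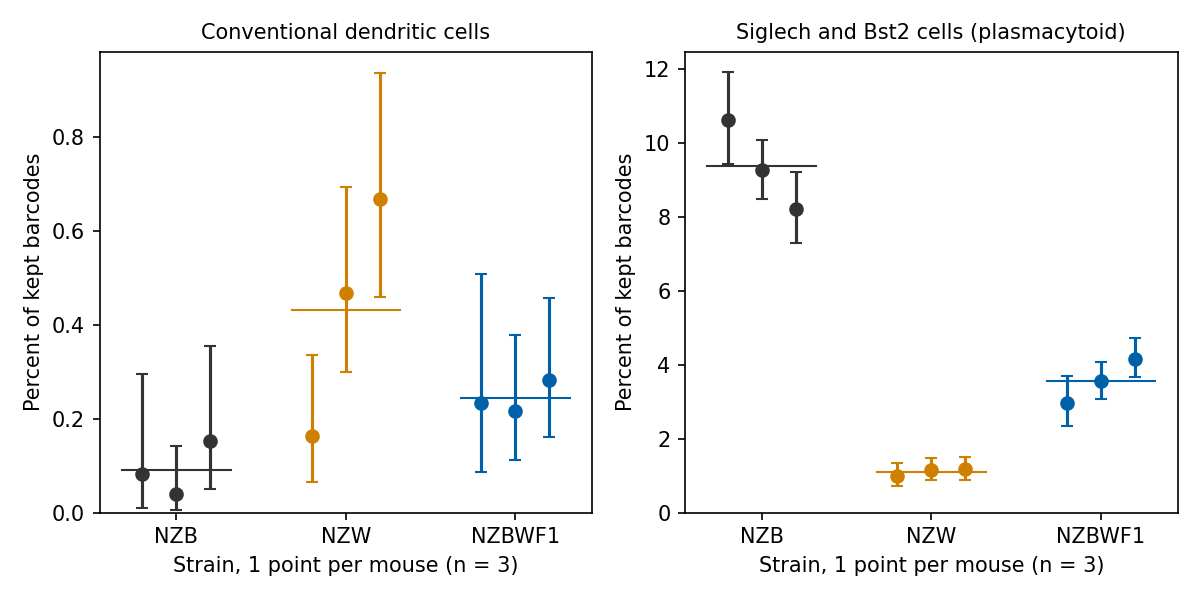
Percent of kept barcodes that were conventional dendritic cells (left) and plasmacytoid cells (right) in each mouse; points are mice with exact binomial 95% intervals, and horizontal lines are strain means (n = 3). The NZB mice sit at 0.0392 to 0.152% on the left, below the other 6 mice, and at 8.22 to 10.6% on the right, above them.

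Of the genes of the rule, which are given without a test, Cd74 was at 28997, 5987, and 8113 CPM in the members of the NZB mice, 6620, 23068, and 14114 in NZW, and 12507, 13020, and 12657 in NZBWF1. The strains overlapped. Clec10a lay between 348 and 794 CPM in all 9 mice, whereas Cd209a had 1, 0, and 2 UMIs in NZB, 5, 44, and 50 in NZW, and 3, 10, and 10 in NZBWF1. These raw counts come from sums of unequal depth. The 1 UMI of NZB mouse 1 stood for 261 CPM and the 3 of NZBWF1 mouse 1 for 153 CPM. Xcr1 had no UMI in the 3 NZB mice or in NZBWF1 mice 1 and 2, and 7, 7, and 9 UMIs in NZW and 16 in NZBWF1 mouse 3. A count of 0 over the pooled NZB members allows a level of up to 91.1 CPM (3 counts).

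Gene expression in the members was compared between strains on UMIs summed per mouse. At the limit of 10 members per mouse used in the study, only NZW mice 2 and 3 and NZBWF1 mice 2 and 3 could enter, and no NZB mouse. NZBWF1 was compared to NZW on these 4 mice, and the 3 contrasts that need NZB were fitted on all 9 mice, where an NZB sum rests on 2 to 5 cells. Contrasts with a common strain share its mice. In edgeR's quasi-likelihood test 1 of 677 genes (0.148%) differed between NZBWF1 and NZW, 7 of 331 (2.11%) between NZB and NZW, 1 of 331 (0.302%) between NZBWF1 and NZB, and 1 of 331 (0.302%) between NZBWF1 and the midpoint of its parents, the mean of their log values, all at an adjusted p under 0.05. Of the 7 genes, 3 (0.906%) were higher in NZB and 4 (1.21%) were lower. Leaving out 1 mouse gave 6 to 9 genes between NZBWF1 and NZW and 3 to 6 between NZB and NZW. At an unadjusted p under 0.05 the counts were 39 (5.76%), 46 (13.9%), 21 (6.34%), and 10 (3.02%).

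The ferritin light chain was the 1 call between NZBWF1 and NZW on the 4 mice of that fit, and its genes led the other contrasts. Ftl1, which encodes the iron-storing light chain (mouse build GRCm38, chromosome 7, 45457944 to 45459884, minus strand, protein coding), was at 7576, 966, and 3220 CPM in NZB, 55.6, 107, and 112 in NZW, and 1373, 1706, and 1720 in NZBWF1. Ftl1-ps1, annotated as protein coding on chromosome 13 (74399694 to 74407346, plus strand), had no UMI in NZB and was at 2281, 2862, and 2573 CPM in NZW and 1830, 1437, and 1331 in NZBWF1. Thus every NZB UMI was assigned to Ftl1, nearly every NZW UMI to Ftl1-ps1 (97.6, 96.4, and 95.8%), and those of NZBWF1 were divided (57.1, 45.7, and 43.6% to Ftl1-ps1).

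In the fits Ftl1 was higher in NZBWF1 than in NZW by 3.93 on the log2 scale (SE 0.28, adjusted p = 0.000118) and higher in NZB than in NZW by 5.09 (SE 0.56, adjusted p = 9.83e-05). Against the 3-UMI floor of the pooled NZB members, Ftl1-ps1 was at least 28.8-fold higher in NZW and at least 16.1-fold higher in NZBWF1 (adjusted p = 5.39e-06 and 7.38e-05). These bounds rest on NZB mouse 3, and without it they were at least 7.89-fold and 4.4-fold. Ftl1 did not pass in NZBWF1 as compared to NZB (log2 fold change -1.16, adjusted p = 0.561; called in 2 of 19 alternatives) or against the parental midpoint (1.38, adjusted p = 0.767; called in 2 of 20, and turned to -0.21 with the arithmetic mid-parent). Ftl1-ps1 was also called in NZBWF1 against the parental midpoint (adjusted p = 0.00521), where a parent with no UMI makes the log midpoint depend on the prior count. That call was lost in 5 of 20 alternatives, namely the arithmetic mid-parent (log2 difference 0.23, adjusted p = 0.999), the replicate block (3.85, 0.0513), a marker sum of at least 3 (3.47, 0.204), Flt3 not counted (3.85, 0.155), and without NZB mouse 3 (3.91, 0.207), the value for all mice being 3.89. In NZBWF1 as compared to NZW the log2 fold change of Ftl1-ps1 was -0.98 (adjusted p = 0.0683), and it was called in 6 of 17 alternatives (adjusted p from 0.00679 to 0.999). Without the members with plasmacytoid genes or many neutrophil UMIs, Ftl1 was still called in NZBWF1 against NZW (adjusted p = 3.34e-15) and in NZB against NZW (adjusted p = 3.65e-07). The sum of both was 3920 ± 3360 CPM in NZB, 2664 ± 317 in NZW, and 3132 ± 76.2 in NZBWF1 (SD, n = 3). The NZB mice, at 966 to 7576 CPM, spanned those of both other strains, and the NZW mice, at 2336 to 2969 CPM, lay below the NZBWF1 mice, at 3052 to 3203 CPM, a gap that was not tested.

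The assignment of reads between these genes is uncertain. Over 910 aligned columns of the reference transcripts, 906 were identical (99.6%), and 297 of the last 300 bases (99%) of the Ftl1 transcript, where a 3' library reads, matched. A strain difference at the few distinguishing bases and a difference in transcription cannot be told apart from these counts.

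**Figure D5:**
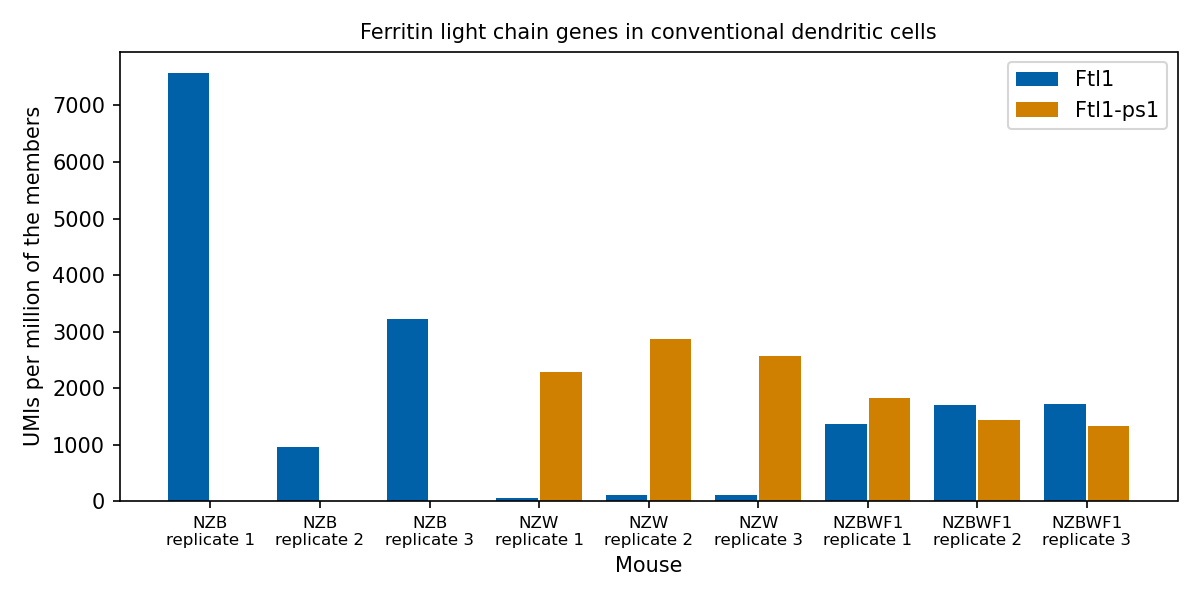
Levels of Ftl1 and Ftl1-ps1 in the members of each of the 9 mice, in CPM. The NZB mice had no Ftl1-ps1 UMI, the NZW mice had 55.6 to 112 CPM of Ftl1, and the NZBWF1 mice held 1331 CPM or more of both.

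Beyond ferritin, 5 genes differed between NZB and NZW. Rps2, a ribosomal protein, was at 522, 579, and 794 CPM in NZB and 2225, 2350, and 2573 in NZW (log2 fold change -1.75, adjusted p = 0.00266). Sh3bgrl3, a small thioredoxin-like protein, was at 3657, 1738, and 1882 CPM in NZB and 834, 406, and 854 in NZW (1.68, adjusted p = 0.0267), and Laptm5, a lysosomal membrane protein, at 522, 193, and 335 CPM and 834, 1367, and 1056 CPM (-1.70, adjusted p = 0.0440). The parents did not overlap in these genes, which the rule for named genes required, so this is no separate result. The NZB values rest on 2 to 45 UMIs per mouse, or 1 to 8 for Laptm5. H2afz (1.30), whose mice overlapped, and Rps14 (adjusted p = 0.0381), which fell short of a 2-fold change, were outside the rule for named genes. Without the members with plasmacytoid genes or many neutrophil UMIs 2 genes were called, and Rps2 (adjusted p = 0.120), Sh3bgrl3 (0.0544), and Laptm5 (0.418) no longer passed. Over all alternatives Rps2 kept its call in 14 of 19, Sh3bgrl3 in 5 of 19, and Laptm5 in 1 of 18.

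The functional lists gave few calls. Outside the ferritin and iron list, and a list of genes named by the study that holds the same 2 genes, no list had a called gene in any of the 4 strain contrasts. The study chose its list on these samples, so it is not independent evidence. In NZBWF1 as compared to NZW, the contrast with the most genes tested, 7 of 17 class II genes were tested, with a median log2 fold change of -0.42 as compared to 0.01 over all genes. H2-Eb1 differed by -0.87 (SE 0.34, adjusted p = 0.747) and H2-Aa by -0.42 (SE 0.23, adjusted p = 0.768). For class I, 11 of 24 were tested (median -0.09), for interferon-stimulated genes 8 of 59 (-0.34), for dendritic cell receptors and transcription factors 8 of 32 (0.09), for chemokine receptors and adhesion 6 of 26 (-0.05), and for cathepsins 8 of 19 (0.23). No gene of costimulation and maturation or of S phase reached the depth to be tested in any contrast. Ifitm2, an interferon-induced membrane protein of a near-identical family, differed by -0.92 (adjusted p = 0.373). The H2 genes also have near-identical copies, so the assignment of reads within both families is uncertain.

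In NZB as compared to NZW, 6 class II genes (median log2 fold change 0.15), 7 class I genes (0.33), 6 interferon-stimulated genes (-0.61), and 4 genes of G2 and mitosis (1.62) were tested, as compared to 0.03 over all genes, and none was called. Dividing members made up 4 of 9 in NZB and 5 of 64 in NZW. Mki67, a proliferation marker, differed by 2.04 with an SE of 1.11 (adjusted p = 0.370). H2-D1, a class I heavy chain, differed by 0.80 (SE 0.29, adjusted p = 0.212), and the assignment of reads among the H2 genes is uncertain. The missing calls do not show that the strains were alike.

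Finally, strain differences in the members were set against those in plasmacytoid cells and classical monocytes of the same mice. The difference itself was tested with the mouse as a block, over genes with at least 15 UMIs in the members. The spread of a gene was fitted jointly to the members' sums, over 2 to 33 cells, and the deeper sums of the other cells. It may therefore understate the spread of the members. Most of these genes were too shallow for the members' own fit of NZB against NZW, which tested 331. In NZB against NZW, 37 of 2226 genes (1.66%) changed differently in the members and in plasmacytoid cells, 9 relatively higher and 28 relatively lower in the NZB members. Against monocytes 1 of 2906 genes (0.0344%) was called. In NZBWF1 against the log-scale midpoint of the parents the counts were 0 of 2226 (0%, with 105 at an unadjusted p under 0.05) and 2 of 2906 (0.0688%).

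Rnase6, a myeloid ribonuclease, was at 261, 579, and 41.8 CPM in the NZB members and 1669, 833, and 494 in the NZW members, whereas plasmacytoid cells of all 9 mice held 1286 to 1746 CPM (log2 difference -2.91, adjusted p = 0.00136). Its NZB values rest on 1, 3, and 1 UMIs. Malat1, a nuclear noncoding RNA, was at 10711, 9656, and 6064 CPM in NZB members and 15409, 12474, and 8720 in NZW members, and was higher in NZB in the plasmacytoid cells (19112 to 20481 as compared to 13190 to 14902 CPM). The log2 difference was -1.64 (adjusted p = 0.000298). Top2a, a topoisomerase of dividing cells, had 0, 7, and 13 UMIs in NZB members and 0, 0, and 23 in NZW members (3.41, adjusted p = 0.000298). Hbb-bs, a globin, had 103 UMIs over the NZW members, of which 101 were in mouse 3, and 1 over the NZB members (-5.06, adjusted p = 0.000729). Bst2 (-2.90) was used to define the plasmacytoid cells and Cd74, also called, to define the members, so these are descriptions. With the members that held plasmacytoid genes or many neutrophil UMIs left out, 3 genes were called in place of 37. Leaving out each mouse in turn gave 11 (without NZW mouse 2) to 90 genes (without NZB mouse 3).

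Against monocytes, Fn1, a matrix protein that monocytes express, had 0, 0, and 3 UMIs in NZB members, 6, 1, and 5 in NZW members, and 13, 7, and 26 in NZBWF1 members, and was at 661, 314, and 533 CPM in the last. In the monocytes it was at 851 to 1173 CPM in NZB, 1528 to 1944 in NZW, and 1242 to 1464 in NZBWF1, between the parents. The log2 difference for NZBWF1 against the parental midpoint was 2.60 (adjusted p = 0.0175). The call rests on 3 UMIs in NZB. F13a1, also called, was among the genes that defined the monocytes, and its 0, 0, and 2 UMIs in NZB members, 1, 15, and 12 in NZW, and 11, 16, and 17 in NZBWF1 are given as a description. Without the members with plasmacytoid genes or many neutrophil UMIs 1 of 2134 genes was called against the parental midpoint, and 0 were without NZBWF1 mouse 1 or without NZBWF1 mouse 3. At least 10 Lyz2 UMIs were held by 13 of the 34 NZBWF1 members, 20 of the 64 NZW members, and 4 of the 9 NZB members. The gene called in NZB against NZW, Pglyrp1, a neutrophil granule protein (2.81, adjusted p = 0.000547), had 28 UMIs in NZB mouse 3 and none in the other NZB mice, and NZB mouse 3 was also the NZB mouse whose members held many S100a8 and S100a9 UMIs.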

How the data were processed

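The authors sequenced 10x Genomics 3' libraries and deposited a filtered matrix of UMI counts per gene and barcode (Cell Ranger 3.1.0 and bcl2fastq 2.20 per the labels' processing notes). The gene annotation and the aggregation's depth setting are not given in the sources used here. The number after each barcode gave its mouse. Barcodes were filtered as in the study (1000 UMIs, 500 genes, 10% mitochondrial UMIs), which left 8106539 to 18663189 UMIs per mouse. The deposited counts were used without batch integration, and doublets were kept in the main analysis. In an alternative, barcodes with the highest simulated-doublet scores (0.8% per 1000 barcodes; 1458 barcodes, 6 members) were removed. The members and gene lists were chosen with earlier results of these data known.

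Plasmacytoid cells had at least 2 Siglech UMIs, Bst2, and no Cd79a or Cd79b, and classical monocytes at least 3 UMIs of F13a1, Ms4a6c, Ccr2, and Csf1r without markers of other types. Shares were compared by exact two-sided permutation over the 280 partitions of 9 mice. UMIs summed per mouse were tested with edgeR 4.0.16 (filterByExpr, TMM, robust quasi-likelihood fit, R 4.3.3), and p-values were adjusted by Benjamini-Hochberg over all genes tested. DESeq2 1.42.0 was an alternative. The fit was also run on simulated counts with a set spread, as a check of the code. Its outcome is not given here and is no evidence on the real spread. No source ties mice to litters or batches. The permutation p-values rest on the spread between these mice. The edgeR p-values rest on a spread shared among the genes tested. A very small edgeR p-value therefore does not measure the spread of that gene alone between mice.

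Named genes were, per strain contrast, the 10 of smallest p past the threshold with at least a 2-fold change and no overlap of the compared strains' mice, up to 4 called genes per list (or its 2 highest), tested genes of the study's list, and 5 per interaction. The numbers in the sample titles were not used to pair the mice in the main fits. The deviations of same-numbered mice from their strain means correlated by -0.0691 to 0.157 over the 9 pairs, and those of other pairs by -0.246 to 0.237. Correlations of sums over few cells cannot exclude a shared batch. Free RNA per barcode was 4 UMIs in mouse 2 of every strain, and 10, 12, and 15 in mouse 3 of NZB, NZW, and NZBWF1. A batch by number was not tested. Sequence identity of the ferritin transcripts and gene positions came from the GENCODE annotation of GRCm38.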

Additional observations from a re-analysis of the deposited data

Results flagged for a closer look

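Genes whose strain difference itself differed between the members and another cell type of the same mice were called in 3 of 4 tests, at small shares. As compared to plasmacytoid cells, 37 of 2226 genes (1.66%) were called in NZB against NZW. The 5 of smallest p had log2 differences of -1.64 (Malat1), 3.41 (Top2a), -2.90 (Bst2), -5.06 (Hbb-bs), and -2.91 (Rnase6). The NZB sums behind these values held 3828, 5178, and 23913 UMIs over 2, 2, and 5 cells. As compared to classical monocytes, 1 of 2906 genes (0.0344%) was called in NZB against NZW, Pglyrp1 (2.81). In NZBWF1 against the parental midpoint 2 of 2906 (0.0688%) were called, Fn1 (2.60) and F13a1 (2.44). F13a1 was among the genes that defined the monocytes, and Bst2 defined the plasmacytoid cells, so their values are descriptions. In edgeR these passed an adjusted p under 0.05, and the role of the few cells per mouse was not tested beyond the alternatives given for these counts.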

How the results depend on the processing

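The members per plasmacytoid cell stayed past the threshold in all 12 alternatives, with an exact p of 0.00357 to 0.00714 when a mouse was left out. The highest exact permutation p was 0.0278, with the replicate number as a block, the smallest that this block allows. The plasmacytoid share alone separated the strains (exact permutation p = 0.00357), so the denominator carries much of this outcome. No alternative for the ratio changed the plasmacytoid definition or the Siglech limit. The share of the members stayed on the same side in 20 of 24 alternatives, and it passed when Flt3 was not counted (exact permutation p = 0.0464), on the log2 share (0.0286), and when the Cd79 genes were not used (0.0286). When a mouse was left out its exact p ran from 0.00357 (without NZW mouse 1) to 0.154. The share of the Xcr1 or Clec9a arm never passed, but the NZB mean turned from the highest to the lowest after thinning to 1000 UMIs (exact permutation p = 0.429) and without NZB mouse 2 (0.818), and the range without a mouse was 0.296 to 0.918. Settings on the log2 share, the Cd79 genes, 1 Siglech UMI, a marker sum of at least 1, the other-lineage limits, the members with plasmacytoid genes or many neutrophil UMIs, the total without plasmacytoid and B cells, and the count per monocyte were chosen after seeing the data, as were the fits over all 9 mice, the ratio, and the arm comparison.

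The counts of called genes moved by over 1.5 times in many settings, and the cause was not tested. Against the parental midpoint, NZBWF1 had 3 called genes with no filter, 2 with the members over the other-lineage limits left out and 2 without those with plasmacytoid genes or many neutrophil UMIs, and 0 with at least 10 counts in every mouse, with a marker sum of at least 3, with Flt3 not counted, with totals thinned to be equal, and with the arithmetic mid-parent, where Ftl1 turned from 1.38 to -0.21. Leaving out a mouse gave 0 to 2, with 0 without NZB mouse 3. NZB against NZW had 12 with no filter, 0 with at least 10 counts in every mouse, 2 each with doublet scores removed, a marker sum of at least 3 (where H2afz turned to -0.35), Flt3 not counted, and the plasmacytoid or neutrophil members left out, and 1 with equal totals. Leaving out a mouse gave 3 to 6. NZBWF1 against NZB had 3 with no filter and 3 with the other-lineage limits, 0 with at least 10 counts and 0 with equal totals, and 1 to 2 without a mouse. NZBWF1 against NZW had 4 with no filter, 6 with Flt3 not counted, 2 without the plasmacytoid or neutrophil members, and 6 to 9 without a mouse, where 1 arm has a lone sample that is assumed to vary like the other strain. That contrast could not be fitted with the other-lineage limits, since too few mice held 10 members. Ftl1 in NZBWF1 against NZW and Ftl1 and Ftl1-ps1 in NZB against NZW were called in every alternative in which they were tested.

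For the differences from plasmacytoid cells in NZB against NZW, 0 genes were called with at least 10 counts in every mouse, 12 with no mouse block, 3 without the plasmacytoid or neutrophil members, and 11 to 90 without a mouse (90 without NZB mouse 3). In NZBWF1 against the parental midpoint the range without a mouse was 0 to 1. From monocytes, NZB against NZW gave 0 with at least 10 counts, with no mouse block, and without the plasmacytoid or neutrophil members, and 0 to 22 without a mouse (22 without NZB mouse 3). NZBWF1 against the parental midpoint gave 0 with at least 10 counts, 1 without the plasmacytoid or neutrophil members, and 0 to 2 without a mouse. The arm comparison had 22 called genes without the dividing members and 40 (without NZW mouse 3) to 78 without a mouse.

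It cannot be told from the data used here whether the replicate numbers pair the mice. With the replicate number as a block, NZBWF1 against the parental midpoint had 0 called genes (Ftl1-ps1, adjusted p = 0.0513), NZB against NZW had 5, and the exact p of the share was 0.139. The block changed no other count.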
